A study of Mus musculus with 12 samples.

Results

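Clca1, Slc26a4 and Gcnt3 are 3 genes of mucus-producing goblet cells, and they are 3 of the 56554 mRNA and lncRNA transcripts on the array. They were chosen by their measured values: all 3 were among the mRNAs listed by the study with the largest increase in m6A-bound RNA in asthma, so their difference in that fraction between the groups is a description here and not a finding. The array files give probe names without gene names. Each gene was tied to its probe by matching the listed fold change and P value to the deposited values: ASMM10EP3A110834381 for Clca1, ASMM10EP3A112208811 for Slc26a4 and ASMM10EP3A100071515 for Gcnt3. Each gene therefore rests on 1 probe.

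The samples were lungs of female BALB/c mice, aged 8 to 10 weeks by the labels, and no genotype was altered. The study's methods give a younger age, for the mice as housed and assigned to groups. The 7 weeks of aerosol came after that, so the methods' age is not the age at sampling, and the label age may not be either. The 3 asthma mice were sensitized with intraperitoneal 0.01% ovalbumin (OVA) on days 0 and 7 and then received 2.5% OVA aerosol 3 times a week for 7 weeks, while the 3 control mice received PBS by both routes. RNA of each mouse was split with an antibody against N6-methyladenosine (m6A). The bound part (IP, labelled with Cy5) and the unbound part (Sup, labelled with Cy3) were hybridized together on 1 array per mouse, with the same dye for each part on all 6 arrays. Whole lung holds many cell types, and in such tissue more goblet cells and more RNA per goblet cell cannot be told apart. The goblet cell label could not be checked against other marker genes, because no other goblet cell marker could be tied to a probe.

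Goblet cells are secretory cells of the airway lining that make and release the gel-forming mucins of mucus. They are sparse in the airways of healthy laboratory mice and become abundant in allergic airway inflammation, where the cytokine IL-13 acts on the epithelium through the transcription factor STAT6. Clca1 encodes a secreted metalloprotease found in mucus. Slc26a4 encodes pendrin, an anion exchanger of the apical membrane that moves chloride, bicarbonate and thiocyanate. Gcnt3 encodes an enzyme of the Golgi that adds branches to the O-linked sugar chains of mucins. m6A is the most common internal modification of mRNA, and the antibody binds RNA fragments or molecules that carry it.

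RefSeq places Clca1 on chromosome 3, Slc26a4 on chromosome 12 and Gcnt3 on chromosome 9, so the genes are not neighbours. The sequence before the transcription start was looked up because STAT6 is the factor named above, and the RefSeq promoter table used here held an entry for Slc26a4. The 250 bases before its start are shown 5′ to 3′ (GRCm38.p6, chr12:31559985-31560234, minus strand), with a TATA box motif in capitals.

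Slc26a4: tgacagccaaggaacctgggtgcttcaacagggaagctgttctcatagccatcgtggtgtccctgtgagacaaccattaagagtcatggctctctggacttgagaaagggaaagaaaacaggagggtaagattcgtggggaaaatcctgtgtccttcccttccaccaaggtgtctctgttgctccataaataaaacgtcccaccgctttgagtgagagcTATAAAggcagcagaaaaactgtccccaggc

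The TATAAA motif lay from base 31 to base 26 before the start. The same letters, searched on both strands, were present in 12.4% of the 32851 promoters of this length in the table. The spaced palindrome TTCNNNNGAA, the form bound by STAT6, had no match in this window and was present in 5.85% of promoters. These are matches of letters and not measured binding sites.

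The arrays of the groups differed in IP signal. The share of probes well above background in IP was 60.1% to 66.7% in the control mice and 69.5% to 70.0% in the asthma mice, and the median IP intensity was 38.5 to 53 and 59 to 66. In Sup the share was 80.4% to 84.4% over all 6 arrays. The part of this shift in the results below was not tested. Slide 1 held the 3 asthma mice and control mouse 1, and slide 2 held control mice 2 and 3. No spot of the 3 genes was saturated or flagged as non-uniform. The intensities below are median spot signals of the scanner, and the log2 levels are those signals after background correction, relative to the mean of 114 spike-in probes of the same channel and array. A log2 level of 0 therefore equals the spike-in mean. Each further unit is a doubling of the corrected signal, to which an offset of 50 had been added. This offset narrows log2 differences and folds that involve dim spots, so the folds below are not folds of net signal. Levels are compared between mice for 1 gene, not between genes, since each probe has its own brightness.

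Clca1, the mucus metalloprotease, was high in every asthma mouse and uneven among the control mice. Its IP intensity was 26.5, 51.5 and 247 in control mice 1, 2 and 3, against a local background of 20, 17 and 18. In asthma mice 1, 2 and 3 the IP intensity was 3062, 5394 and 5620, with local backgrounds from 18 to 20. The lowest asthma mouse was thus far above the highest control mouse, while control mouse 1 was not well above background and control mouse 3 stood clear of the other two. The Sup intensity was 15, 149 and 171 in the control mice and 1713, 2987 and 2941 in the asthma mice. The Sup signal of control mouse 1 was again not well above background, and control mice 2 and 3 were close to each other. On the log2 scale the IP level was -0.33, 0.10 and 1.98 in the control mice and 5.08, 5.87 and 6.11 in the asthma mice. The Sup level was -0.56, 1.0 and 1.37 in the control mice and 4.19, 5.0 and 5.16 in the asthma mice. The groups did not overlap in either fraction.

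Slc26a4, the gene for pendrin, was low in the control mice and high in the asthma mice. It was the only one of the 3 genes that was well above background in both fractions on all 6 arrays. Its IP intensity was 41, 49.5 and 35.5 in the control mice, over backgrounds of 21, 19 and 17, and 784, 839.5 and 995.5 in the asthma mice. Its Sup intensity was 26, 51 and 34.5 in the control mice and 494.5, 394.5 and 597 in the asthma mice. Asthma mouse 3 had the highest signal in both fractions, while asthma mice 1 and 2 took opposite order in IP and Sup. In the log2 values that the authors deposited, asthma mouse 1 was above asthma mouse 2 in both fractions. The log2 IP level was -0.05, 0.04 and 0.03 in the control mice and 3.16, 3.23 and 3.66 in the asthma mice. The log2 Sup level was -0.32, -0.05 and -0.10 in the control mice and 2.47, 2.19 and 2.93 in the asthma mice. On this scale the control values lay within a narrow band around the spike-in mean, where the offset narrows differences between dim spots. The groups did not overlap.

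Gcnt3, the mucin-branching enzyme, was dim in all mice and not well above background in any control mouse in either fraction. Its IP intensity was 26, 20 and 22 in the control mice, against backgrounds of 20, 21 and 18.5, so the spot of control mouse 2 was dimmer than its surroundings. Its Sup intensity was 11, 17 and 12 in the control mice, against backgrounds of 11, 13 and 12. The control values therefore give only an upper bound of the signal. All asthma mice were well above background, with IP intensities of 68, 202.5 and 91 and Sup intensities of 34, 57.5 and 44. Asthma mouse 2 was the highest in both fractions, with a wider lead in IP than in Sup. The log2 IP level was -0.34, -0.61 and -0.29 in the control mice and 0.19, 1.36 and 0.63 in the asthma mice. The log2 Sup level was -0.66, -0.73 and -0.63 in the control mice and -0.38, 0.05 and 0.03 in the asthma mice.

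**Figure D1:**
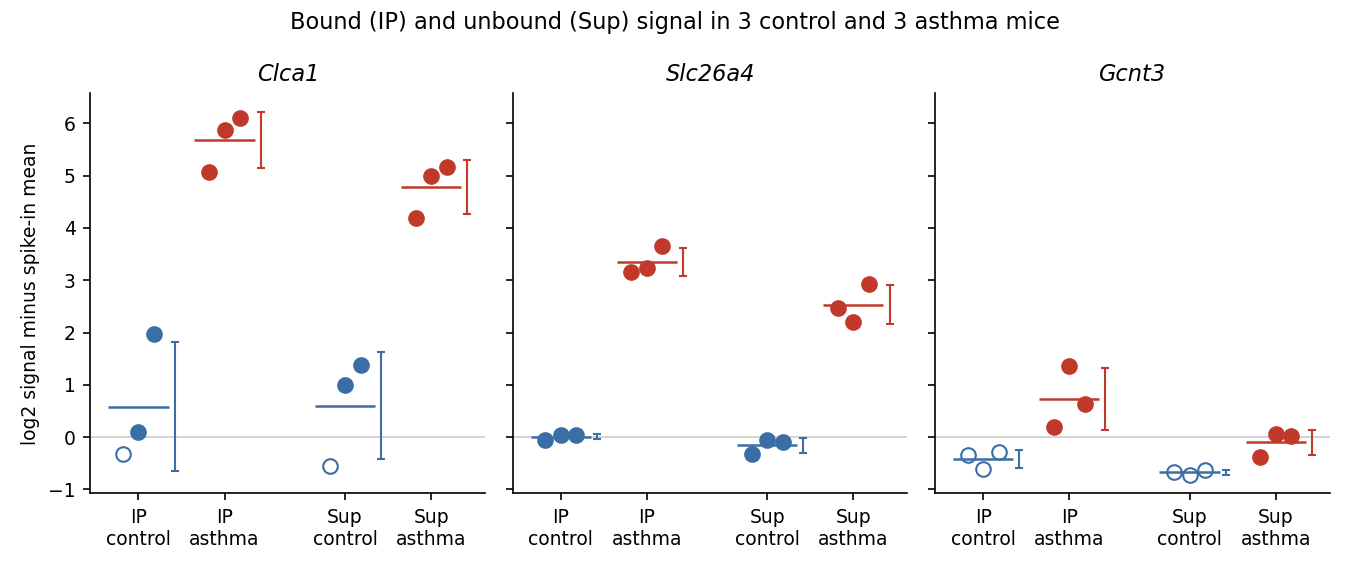
Log2 signal relative to the spike-in mean (vertical axis) of Clca1, Slc26a4 and Gcnt3 in the bound (IP) and unbound (Sup) RNA of each control (blue) and asthma (red) mouse; points are mice, open where the spot was not well above background, horizontal lines are means and bars are SDs (n = 3). Each gene's lowest asthma mouse lies above its highest control mouse in both fractions, and the Clca1 controls spread from -0.33 to 1.98 in IP.

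In the plot of levels in each mouse, the groups of each gene stand apart in both fractions. The differences below are asthma minus control on the log2 scale, with the standard error of the moderated fit across all tested probes. No P value is given for the 3 genes, because IP, Sup and their ratio come from the same mice whose IP contrast chose the genes. Clca1 went from 0.58 ± 1.23 to 5.68 ± 0.54 in IP (SD, n = 3 mice per group), a difference of 5.10 ± 0.62 (SE) or 34.4-fold. In Sup it went from 0.60 ± 1.02 to 4.78 ± 0.52, a difference of 4.18 ± 0.53 or 18.1-fold. Clca1 ranked number 2 from the top in both fractions, of 37359 probes tested in IP and 45243 in Sup. The size of the Clca1 IP difference leaned on control mouse 3, and without that mouse it was 5.80.

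Slc26a4 went from 0.01 ± 0.05 to 3.35 ± 0.27 in IP, a difference of 3.34 ± 0.15 or 10.2-fold. In Sup it went from -0.16 ± 0.14 to 2.53 ± 0.37, a difference of 2.69 ± 0.20 or 6.46-fold. It ranked number 27 in IP and number 18 in Sup. Gcnt3 went from -0.42 ± 0.17 to 0.73 ± 0.59 in IP, a difference of 1.14 ± 0.29 or 2.21-fold, and ranked number 871. In Sup it went from -0.67 ± 0.05 to -0.10 ± 0.24, a difference of 0.57 ± 0.13 or 1.49-fold, and ranked number 1344. Its control signal was not well above background, so these folds depend on the scale. On channel values after loess and Aquantile normalization, against the lowest signal that counted as well above background, Gcnt3 was at least 2.19-fold higher in asthma in IP and at least 1.54-fold higher in Sup. These bounds hold for that scale alone. Each compares the groups within 1 channel, which had the same dye on all 6 arrays. A dye effect that varies with brightness was not tested. The spike-in-scaled Sup fold of 1.49 lies below the bound, and with the brighter spike-in probes alone the log2 differences were 0.74 in IP and 0.49 in Sup. All 3 differences were larger than the SDs of both groups in IP and in Sup.

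The medians of all tested probes give the background of these differences, at 0.15 in IP and -0.07 in Sup. The IP median turned to -0.25 with the brighter spike-in probes alone and to -0.11 with 75th percentile scaling. In IP, 6.86% of tested probes were higher in asthma by over 1.5-fold with an unadjusted limma P below 0.05, and all 3 genes were among them, as the choice of genes fixed. The lowest asthma value lay above the highest control value in 20.4% of the probes compared in IP and again in all 3 genes. In Sup, 0.584% of tested probes met the same fold and P criterion, among them Clca1 and Slc26a4, while Gcnt3 was just under the fold threshold. The groups did not overlap in 2.83% of probes in Sup, the 3 genes included. Clca1 and Gcnt3 passed the signal filter only through the asthma mice, so these counts are descriptions. The Sup values come from the other part of the same RNA samples and are not an independent measurement of the contrast.

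**Figure D2:**
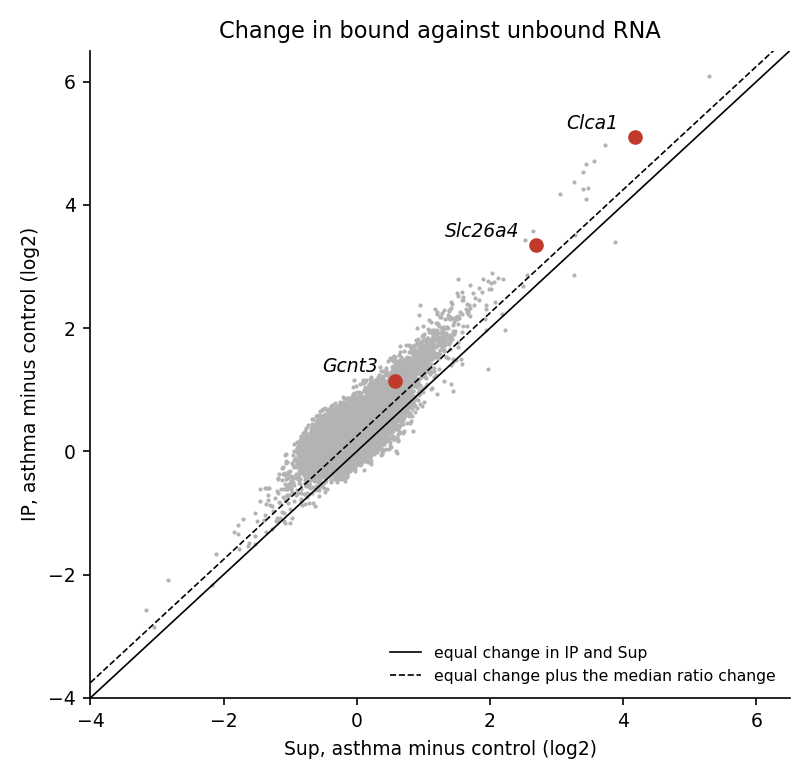
Difference between asthma and control in IP (vertical axis, log2) against that in Sup (horizontal axis, log2) for all probes tested in the ratio (grey) and for the 3 genes (red); the solid line marks equal change and the dashed line equal change plus the median ratio difference of 0.25. Clca1 (4.18 in Sup, 5.10 in IP), Slc26a4 (2.69, 3.34) and Gcnt3 (0.57, 1.14) all lie above both lines.

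The plot of the IP difference against the Sup difference shows that both fractions of each gene were higher in asthma, with the larger difference in IP. Across the 6 mice, IP and Sup of a gene had a Pearson r of 0.983 for Clca1, 0.995 for Slc26a4 and 0.954 for Gcnt3. After each group's mean was removed, r was 0.813, 0.863 and 0.823. These are descriptions over 6 mice, whose IP and Sup signals share an array and an RNA sample. Mice with more bound RNA of a gene also tended to have more unbound RNA of it.

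The ratio of IP to Sup is given as log2 IP minus log2 Sup within an array. It describes how a gene's signal was divided between bound and unbound RNA, after the offset of 50 was added to both. It is not the share of molecules that carry m6A, because the dyes differ. In dim spots, such as the Slc26a4 and Gcnt3 control spots, the offset makes up much of both signals and narrows the ratio. The part of the offset in the ratio differences between dim control and brighter asthma spots was not tested. For Clca1 the ratio was 0.23, -0.90 and 0.61 in the control mice and 0.89, 0.87 and 0.95 in the asthma mice. The asthma mice were nearly identical, with an SD of 0.04, whereas the control mice ranged over both signs. For Slc26a4 the ratio was 0.27, 0.09 and 0.13 in the control mice and 0.69, 1.04 and 0.72 in the asthma mice. For Gcnt3 it was 0.32, 0.11 and 0.33 in the control mice, where neither channel was well above background, and 0.57, 1.31 and 0.61 in the asthma mice. On this scale no gene had overlapping groups, and asthma mouse 2 had the highest ratio for Slc26a4 and for Gcnt3 but the lowest for Clca1.

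The mean ratio went from -0.02 ± 0.78 to 0.90 ± 0.04 for Clca1, a difference of 0.92 ± 0.31 (SE) or 1.90-fold. The Clca1 value leaned on the uneven control mice: it was 0.49 without control mouse 2 and 1.24 without control mouse 3. For Slc26a4 it went from 0.17 ± 0.10 to 0.82 ± 0.19, a difference of 0.65 ± 0.13 or 1.57-fold. For Gcnt3 it went from 0.26 ± 0.12 to 0.83 ± 0.42, a difference of 0.57 ± 0.19 or 1.49-fold, which fell to 0.33 without asthma mouse 2. The median ratio difference of all 37077 tested probes was itself 0.25, and relative to that median the 3 differences were 0.68, 0.41 and 0.33. Without control mouse 2 the relative value of Clca1 was 0.28, without control mouse 3 it was 1.03, and without asthma mouse 2 that of Gcnt3 was 0.10. The sign of the median itself turned with the scaling, at -0.09 with the 75th percentile, -0.08 with the brighter spike-in probes and 0.00 with quantile normalization. The Clca1 and Slc26a4 ratios met the fold and P criterion, which 12.1% of tested probes met, and non-overlapping higher groups were found in 42% of probes. The ratio contains the IP values that chose the genes, so nothing is read from these counts.

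Among all tested probes, the control mean of the ratio was above that of 40.9% of probes for Clca1, 59.4% for Slc26a4 and 68.4% for Gcnt3. In asthma it was above 83.4%, 80.8% and 81.2%. The Gcnt3 control rank cannot be interpreted, because both channels were at background in all control mice, and dye and probe also enter every rank. The asthma means were close to each other, but the genes took different orders in single mice. Clca1 was at 82.7%, 80.2% and 86.0% in asthma mice 1, 2 and 3, and Gcnt3 at 70.4%, 90.7% and 73.9%. Gcnt3 was thus the lowest of the genes in asthma mice 1 and 3 and the highest in asthma mouse 2. The Clca1 control mean hides mice at 55.4%, 7.34% and 91.9%, of which the first had no channel well above background. Slc26a4, measured in all mice, was at 59.5%, 56.8% and 62.0% in the control mice and at 76.0%, 85.1% and 78.8% in the asthma mice. These ranks are not adjusted for brightness, which differed between the groups for this gene. With loess within arrays, which evens out the dependence of the ratio on intensity, its difference was 0.24 and not 0.65.

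The separation of the groups in the ratio depended on how the channels were processed. In the log2 values that the authors deposited, the Clca1 ratio was 0.73, -1.91 and 1.02 in the control mice and 0.43, 0.42 and 0.51 in the asthma mice. The Slc26a4 ratio was 0.55, -0.05 and 0.60 in the control mice and 0.49, 0.87 and 0.59 in the asthma mice. The Gcnt3 ratio was 1.67, -0.49 and 1.44 in the control mice and 1.42, 1.84 and 1.21 in the asthma mice. The groups overlapped for all 3 genes in those values, with control mouse 2 the lowest each time. The mean difference there was 0.51 for Clca1, 0.28 for Slc26a4 and 0.62 for Gcnt3, or 0.27, 0.05 and 0.38 relative to the median of all probes. With loess within arrays the Clca1 ratio difference was 0.16 and that of Slc26a4 was 0.24, while that of Gcnt3 was 0.52. All ratio differences were above 0 in every setting tried, but the smallest was 0.01 relative to the median of all probes, for Gcnt3 without background correction.

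**Figure D3:**
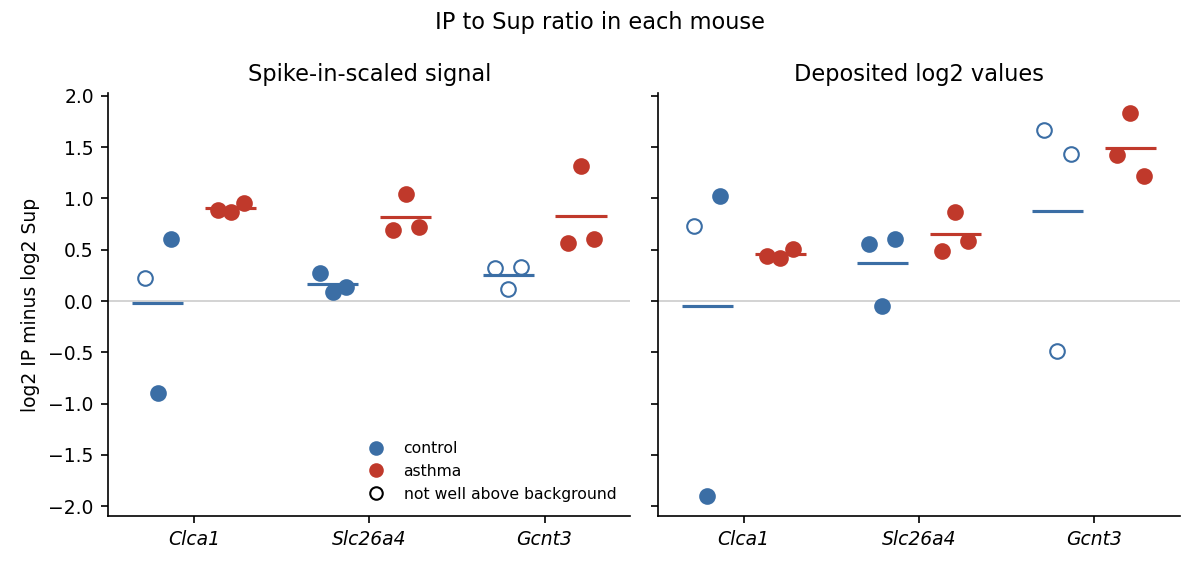
Log2 IP minus log2 Sup (vertical axis) in each control (blue) and asthma (red) mouse for the 3 genes, from the spike-in-scaled signal (left) and from the deposited log2 values (right); points are mice, open where at least 1 channel was not well above background, and lines are means (n = 3). The groups are separate on the left and overlap on the right, where control mouse 2 is the lowest value of each gene.

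The IP and Sup differences were wider in the deposited values than on the scale used here, which adds an offset of 50. In the deposited values Clca1 was 77.9-fold higher in asthma in IP and 54.9-fold in Sup, Slc26a4 was 25.9-fold and 21.3-fold higher, and Gcnt3 was 24.0-fold and 15.7-fold higher. The Gcnt3 folds divide by control spots that were not well above background, and the plot of differences under other processing shows the widest IP scatter for Gcnt3.

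**Figure D4:**
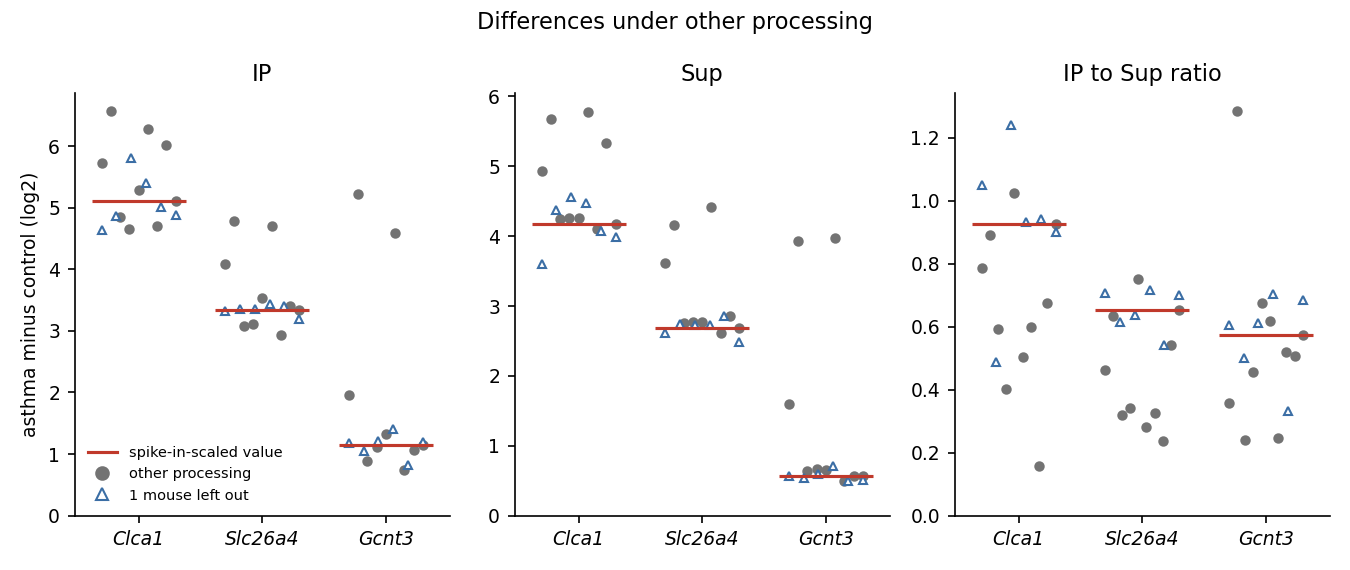
Asthma minus control difference (vertical axes, log2, from 0) of each gene in IP, Sup and their ratio; the red line is the spike-in-scaled value, grey circles are other ways to process the signals and blue triangles leave out 1 mouse. Every value is above 0, and Gcnt3 spreads most in IP, from 0.74 to 5.22.

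The mice of a group also differed among themselves, and the 3 genes did so in different ways. The Clca1 SD among control mice was larger than that of 99.5% of tested probes in IP and of 99.7% in Sup. Control mouse 1, the lowest, was on slide 1, and control mice 2 and 3 were on slide 2. Mouse and slide cannot be told apart in the distance of control mouse 1 from control mice 2 and 3. By contrast, the Slc26a4 IP SD among control mice was larger than that of 6.25% of probes on this scale. Its Sup SD was larger than that of 53.2%. The Slc26a4 control spots were dim, and the offset narrows the SDs of dim spots. In the deposited values its IP SD was 0.35 among control mice and 0.39 among asthma mice. Among asthma mice the IP SD exceeded that of 95.0% of probes for Clca1, 82.7% for Slc26a4 and 95.8% for Gcnt3, and the Sup SD that of 96.0%, 93.2% and 86.2%. On this scale the asthma SDs of these genes were thus above those of most probes, with median SDs over all tested probes of 0.14 in IP and 0.11 in Sup. Each SD rests on 3 mice. Because the offset narrows the SDs of dim probes, brightness enters these ranks, and probes of equal brightness were not compared. Asthma mouse 1 had the lowest Clca1 and Gcnt3 levels in both fractions, but in Slc26a4 it was the lowest in IP only, on this scale. In the deposited values asthma mouse 2 had the lowest Slc26a4 level among asthma mice in both fractions (3.17 in IP and 2.30 in Sup).

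Of 39 other transcripts with a name and a probe, those most like each gene were ranked by Pearson r of the Sup signal over the 6 mice, and the r of IP is given second. All 40 names come from lists chosen on the contrast between these mice, so high values were built in and are a description. Slc26a4 was most like Chil4, a chitinase-like protein of allergic lung, with r of 0.997 and 0.999. Next to it were the transcript RP23-101F14.3 (0.995 and 0.993) and Rnase2a, an eosinophil ribonuclease (0.992 and 0.998). After group means were removed, Slc26a4 and Chil4 had r of 0.896 in Sup and 0.956 in IP. Slc26a4 and Rnase2a had 0.893 and 0.870, so such values were not particular to Chil4. Slc26a4 varied less among control than among asthma mice, so these r values rest mainly on 3 mice. RP23-101F14.3 had 0.802 in Sup but -0.41 in IP with Slc26a4 by the same measure, and Slc26a4 with Gcnt3 had 0.06 and -0.03. Clca1 was most like RP23-101F14.3 (0.964 and 0.961), Rnase2a (0.962 and 0.962) and Slc26a4 (0.961 and 0.964). Gcnt3 was most like Ptgdr, a receptor for prostaglandin D2 (0.934 and 0.876), Clca1 (0.913 and 0.868) and Cd209e, a C-type lectin (0.911 and 0.851). Slc26a4 was not among the 3 nearest to Gcnt3.

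The ratio differences of genes grouped under other cell types are given for comparison. These group names are labels, and the cells that held the RNA in whole lung were not measured. Among the genes grouped as alternative macrophage genes the ratio difference was 0.50 for Arg1, 0.03 for Cd209e and 0.24 for Chil4. Among the eosinophil and prostaglandin genes it was 0.84 for Ptgdr and 0.82 for Rnase2a. Clca1, at 0.92 with all mice, was above all of these, while Gcnt3, at 0.57, was near Arg1. This order is uncertain, because the Clca1 value was 0.49 without control mouse 2 and 0.16 with loess within arrays. The Gcnt3 value uses control spots that were not well above background. The difference between these groups was not tested, as each holds 2 or 3 genes chosen on the same contrast.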

How the data were processed

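RNA of 3 control and 3 asthma lungs was hybridized to 6 two-colour arrays (IP in Cy5, Sup in Cy3), scanned and extracted by the authors with Agilent Feature Extraction 11.0.1.1. The deposited scanner files hold median spot intensity, local background and flags of other kinds (well above background, saturated, non-uniform). The files of the IP and Sup sample of a mouse were identical (6 of 6 pairs), since 1 file holds both channels. The authors also deposited log2 values of 41337 probes normalized to spike-in RNA, which were used as an alternative. The intensity precision is limited by the 3 mice per group, and arrays give no read depth.

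Median intensities were background-corrected with normexp (offset 50), put on the log2 scale and reduced by the mean of the 114 spike-in probes of the channel and array. The design allowed for mean signals, but the files hold medians. limma 3.58.1 in R 4.3.3 was fitted without covariates over probes whose signal was well above background in every mouse of a group, and for the ratio in IP and Sup alike. A call was a fold above 1.5 with an unadjusted P below 0.05, as in the study's methods. The fits were tested on simulated data. The alternatives were other background corrections, scalings, loess, the deposited values, slide or replicate blocks, each mouse left out, no filter on dim probes and no empirical Bayes step. Spike-in probes well above background alone were added as an alternative after seeing the data.

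The members and lists were chosen with earlier results of these data known. The named genes were the 3 genes and, for each, the 3 most alike transcripts in Sup, and Arg1 was named as well, as part of the macrophage group. Lists of further goblet cell genes and of cell type markers were not analysed here, because no table used here pairs the other probes with gene names.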

Additional observations from a re-analysis of the deposited data

How the results depend on the processing

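The 3 genes were higher in asthma in IP, Sup and the ratio under every alternative. Of 138 values 115 moved by less than 1 SD between mice, 23 moved further and 0 changed sign. This count does not show that the sizes were stable, because the SD is the gene's own. The Clca1 ratio difference stayed within 1 SD in all 16 alternatives, though loess took it from 0.92 to 0.16, since its control SD was 0.78. Values with a replicate block, which cannot move, are also counted. Without background correction the IP difference was 4.08 for Slc26a4 and 1.96 for Gcnt3, and the Sup difference 3.62 and 1.60. From the signal that the scanner software had already background-subtracted, the IP differences were 6.56 for Clca1, 4.79 for Slc26a4 and 5.22 for Gcnt3, the Sup differences 5.67, 4.16 and 3.94, and the Gcnt3 ratio difference 1.28. In the deposited values the IP difference was 4.70 for Slc26a4 and 4.59 for Gcnt3, and the Sup differences 5.78, 4.42 and 3.97 for the 3 genes. The Slc26a4 ratio difference was 0.32 with 75th percentile scaling, 0.34 with quantile normalization, 0.28 in the deposited values, 0.24 with loess and 0.33 with the 24 IP and 52 Sup spike-in probes well above background, which gave 2.94 in IP. Within slide 1, against control mouse 1 alone, the Clca1 Sup difference was 5.34. The cause of these shifts was not tested.

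The r of same-numbered deviations was -0.37, 0.39 and 0.25 in IP and -0.35, 0.14 and 0.26 in Sup. With 3 mice per group these values cannot decide whether the replicate numbers pair the mice. In this balanced design a replicate block cannot move the differences (5.10, 3.34 and 1.14 in IP). The block took the probes higher in asthma from 2564 to 3440 in IP and from 264 to 503 in Sup. Without 1 mouse the Clca1 IP difference ranged from 4.65 to 5.80, and the ratio difference from 0.49 to 1.24 for Clca1 and from 0.33 to 0.70 for Gcnt3.

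The number of probes meeting the criterion depended on the setting: from 619 (quantile) to 5761 (without control mouse 2) higher in IP against 2564, from 156 (no empirical Bayes step) to 1921 (without asthma mouse 3) higher in Sup against 264, and from 53 (quantile) to 7408 (without control mouse 1) higher in the ratio against 4494. Lower probes numbered 8 to 1257 in IP (21), 96 to 5609 in Sup (596) and 0 to 86 in the ratio (3). Gcnt3 is limited by control spots at background.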
